A study of Danio rerio with 8 samples.

Results

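The genes described here encode the 8 subunits of the cytosolic chaperonin (TRiC, also called CCT): tcp1 (RefSeq NM_131230), cct2 (NM_201455), cct3 (NM_173250), cct4 (NM_200583), cct5 (NM_212613), cct6a (NM_201290), cct7 (NM_173248) and cct8 (NM_201062). They were taken by matching the RefSeq accession of each row to zebrafish gene symbols. Each of the 8 genes had 1 row, out of 15600 transcript rows in the series, and all 8 rows were listed in all 8 libraries and passed the filter on low values (at least 5 CPM in at least 2 libraries, where CPM is counts of tags scaled to a common library total). That filter kept 4577 rows in all.

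TRiC is an ATP-driven folding machine built of a pair of stacked rings, and each ring holds every subunit once. Newly made actin and tubulin need it to fold, as do many proteins built of WD repeats, and the cofactor prefoldin hands clients over to it. The subunits are paralogs of a common fold, and cells need every one of them. In human cells the genes CCT2, CCT3, CCT4, CCT5, CCT7 and TCP1 stand in a widely used list of MYC targets.

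The series profiled zebrafish liver by 3' RNA-SAGE on the SOLiD system, an assay that reads 1 short tag at the 3' side of a transcript and counts the tags. The M+D+ group (2 libraries, labelled liver tumour) came from fish that carry Tg(fabp10:TA; TRE:Myc; krt4:GFP) and were given doxycycline. In this line the liver promoter fabp10 drives a doxycycline-dependent transactivator, the transactivator switches on Myc, and the krt4 promoter drives a green fluorescent reporter. The 3 control groups of 2 libraries each were wild-type siblings on doxycycline (M-D+), untreated transgenic fish (M+D-) and untreated wild-type siblings (M-D-). Treatment began at 21 days after fertilization, in 6-L tanks of about 25 fish. Age at sampling, dose and the source of the Myc sequence are not given in the labels, and no row was used as a reading of the transgene. Whether a group's 2 libraries stem from different fish is not stated in the labels, so the p-values speak only of how far these libraries spread, and that spread may be technical.

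Recovered totals ran from 1682373 tags in M-D+ library 1 to 6399932 in M+D+ library 1. Values are CPM, as deposited. Of 15 hepatocyte marker genes 12 were present, fabp10a among them, and they summed to 154754 to 206664 CPM in M+D+ and to 111106 to 268418 CPM in the control libraries. The 14 present of 18 exocrine pancreas markers summed to 665 to 1043 CPM in M+D+ and to 1240 to 4021 CPM in the controls, and the 7 of 11 erythrocyte markers to 132.5 to 198.7 and 210.4 to 440.2 CPM. On the deposited scale both M+D+ libraries thus lay below every control library for these 2 lists. Scaling by TMM (trimmed mean of M-values, used below) would lift M+D+ library 2 above M-D+ library 2 for both lists. This order thus depends on the scaling. Leukocyte markers (9 of 12 present) summed to 260.5 to 277.8 CPM in M+D+ and 206.0 to 783.1 CPM in the controls, endothelial and stellate markers (7 of 10) to 22.0 to 50.3 and 29.0 to 415.0 CPM, biliary markers (5 of 7) to 1816 to 2631 and 1348 to 5122 CPM, and oocyte markers (7 of 8) to 0.2 to 5.9 and 2.2 to 40.8 CPM. The M-D+ library 2 held the highest leukocyte, endothelial and biliary sums. The part of these cell types in the subunit values was not tested, and in bulk RNA fewer cells of a type and less RNA per cell cannot be told apart.

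Livers with the induced Myc transgene held more transcripts of 3 chaperonin subunits than the average of the 3 control groups. Limma on the deposited scale also called these 3 against M-D+ alone, but none of them against M+D- alone or M-D- alone. The transcripts of cct8 were 3.14-fold, those of cct2 2.90-fold and those of cct6a 1.80-fold as abundant in M+D+ as in the average control group, on the log2(CPM + 1) scale. Under TMM scaling, edgeR and DESeq2 these folds were larger, at 4.49 to 5.05 for cct8, 4.08 to 4.94 for cct2 and 2.62 to 2.73 for cct6a. The other 5 subunits were not called in either direction. For cct8, cct2 and cct6a both M+D+ libraries lay above all 6 control libraries. On the deposited scale that order occurred in 3.87% of all rows tested and in no other subunit. TMM scaling would put cct3 and cct7 in that order too, and the share of all rows was not counted on that scale.

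The subunit cct8 (theta) had the largest rise. It stood at 28.0 and 42.3 CPM in M+D+, at 13.7 and 5.89 CPM in M-D+, at 12.4 and 11.7 CPM in M+D- and at 10.9 and 9.11 CPM in M-D-. Both M+D+ libraries lay well above the highest control library, M-D+ library 1, and the M-D+ libraries spanned the other 4 controls. The M+D+ values rest on 179 and 121 tags, and the control values on 23 to 62. Against the average of the control groups its log2 change was 1.65 ± 0.34 (SE; limma adjusted p = 0.0157).

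The subunit cct2 (beta), whose human ortholog is mutated in a congenital retinal blindness, was among the scarcest. It stood at 11.4 and 16.4 CPM in M+D+, at 3.57 and 4.76 CPM in M-D+, at 7.97 and 3.98 CPM in M+D- and at 1.82 and 4.12 CPM in M-D-. Library 1 of M+D- came nearest to the M+D+ libraries, and the control groups overlapped. The M+D+ values rest on 73 and 47 tags and the control values on 6 to 40. Counting error alone gives M+D+ library 1 an exact Poisson interval (95%) of 8.94 to 14.3 CPM, and M+D- library 1 one of 5.69 to 10.9 CPM. Such intervals hold for counting error alone, and the labels name no molecular identifiers that would remove PCR copies. Its log2 change was 1.54 ± 0.37 (SE; limma adjusted p = 0.0256). Among the controls only M+D- library 1 reached 5 CPM, so cct2 passed the filter on low values through its M+D+ libraries. With no filter cct2 was not called (limma adjusted p = 0.0587).

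The subunit cct6a (zeta) was the most abundant of the 3. It stood at 158 and 183 CPM in M+D+, at 82.6 and 76.3 CPM in M-D+, at 118 and 134 CPM in M+D- and at 86.8 and 79.6 CPM in M-D-. On the deposited scale the levels fell into steps, with M+D+ highest, M+D- next, and the M-D+ and M-D- groups lowest and overlapping. All 4 libraries from transgenic fish lay above all 4 from wild-type fish. On the deposited scale only cct6a of the 8 subunits showed this order, which 1.42% of all rows tested shared. TMM scaling would put cct2, cct4 and cct8 in this order too, each only narrowly, so it is not particular to cct6a. The share of all rows was not counted on that scale. Its log2 change in M+D+ over the average of the control groups was 0.85 ± 0.22 (SE; limma adjusted p = 0.028).

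In this comparison limma called 2.32% of all 4577 rows higher, beside 3 of the 8 subunits. No subunit was called lower, while 946 rows were lower and 106 higher. Of the 3 subunits, cct2 passed the filter on low values through its M+D+ libraries. With no filter limma called only cct8 (adjusted p = 0.0337, beside 0.0587 for cct2 and 0.0737 for cct6a), with 75 of 15600 rows higher. On the deposited scale the median log2 change of the subunits was 0.43 and that of all rows -0.57, and all 8 subunits lay above the median of all rows. After scaling by TMM (trimmed mean of M-values), the median of all rows stood at -0.08 and that of the subunits at 0.96. The same 3 subunits were then called (limma), with 268 rows (5.86%) higher and 231 lower. With edgeR's quasi-likelihood test on recovered tags the same 3 were called (adjusted p = 0.00764 for cct8, 0.0136 for cct2 and 0.0132 for cct6a), with 6.55% of all rows higher. The calls rested on both M+D+ libraries: without library 1 limma called no subunit (adjusted p = 0.0639 for cct8, 0.0943 for cct2, 0.0981 for cct6a), and without library 2 likewise (0.0881, 0.14 and 0.124). The call of cct2 also ended without M+D- library 2 (limma adjusted p = 0.0609), and that of cct6a without any 1 of the 4 M+D- and M-D- libraries (0.0559 to 0.082). With the M-D+ group left out of the control average limma called only cct8 (adjusted p = 0.0521 for cct2 and 0.0839 for cct6a).

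**Figure D1:**
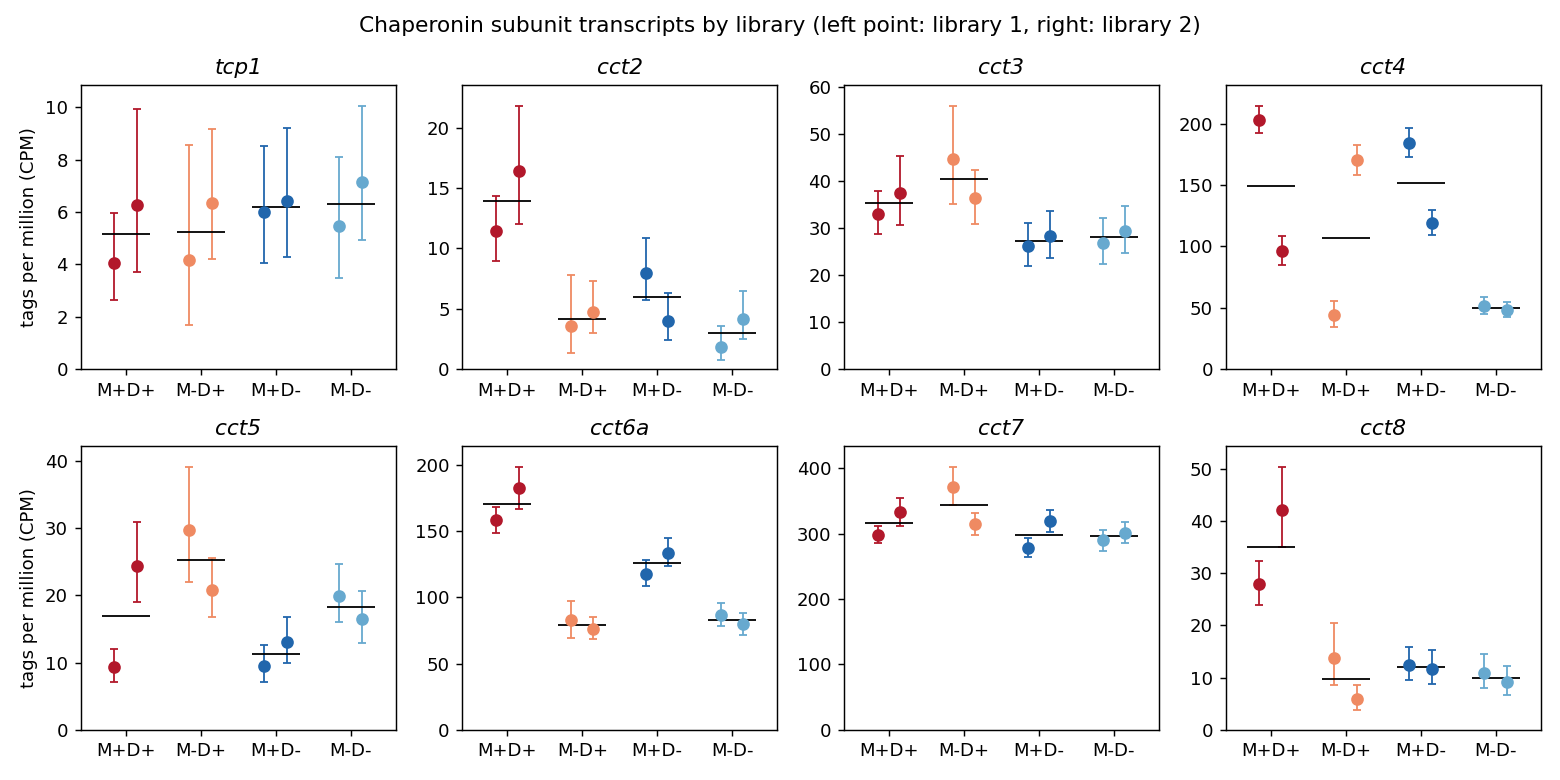
Level of each chaperonin subunit in CPM (vertical axes start at 0 and differ between panels) in the 2 libraries of each group. Points are libraries, whiskers are exact Poisson 95% intervals for counting error, and black lines are group means. Both M+D+ points lie above every control point for cct2, cct6a and cct8.

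The other 5 subunits did not pass the test, and their levels were as follows. The most abundant, cct7 (eta), stood at 299 and 333 CPM in M+D+, at 372 and 315 CPM in M-D+, at 278 and 319 CPM in M+D- and at 289.6 and 302 CPM in M-D-. All 4 groups lay within this narrow band, and the log2 change in M+D+ over that average was 0.02 ± 0.22 on the deposited scale (SE; limma adjusted p = 0.955). It was 0.56 after TMM scaling and 0.57 with edgeR (adjusted p = 0.132 and 0.145). The values rest on 626 to 1911 tags per library, the most of any subunit.

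The subunit cct3 (gamma) stood at 32.97 and 37.4 CPM in M+D+, at 44.6 and 36.2 CPM in M-D+, at 26.1 and 28.3 CPM in M+D- and at 26.8 and 29.3 CPM in M-D-. On the deposited scale the 4 libraries from doxycycline-treated fish lay above the 4 from untreated fish, an order that 3.8% of all rows tested shared. The M+D+ and M-D+ groups overlapped. This order depends on the scaling. The log2 change in M-D+ over M-D- was 0.51 on the deposited scale (limma adjusted p = 0.203). It was -0.19 after TMM scaling and -0.20 with edgeR (adjusted p = 0.725 and 0.696). For cct3 the log2 change in M+D+ over the average of the control groups was 0.16 ± 0.22 (SE; limma adjusted p = 0.61). That change was 0.70 after TMM scaling and 0.72 with edgeR (adjusted p = 0.0762 and 0.064).

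The subunit cct5 (epsilon), whose human ortholog is mutated in a hereditary sensory neuropathy, stood at 9.38 and 24.4 CPM in M+D+, at 29.7 and 20.8 CPM in M-D+, at 9.56 and 13.04 CPM in M+D- and at 19.99 and 16.5 CPM in M-D-. The M+D+ libraries spanned all control libraries but M-D+ library 1, which was higher. Its log2 change was -0.16 ± 0.37 (SE; limma adjusted p = 0.756) and turned positive after TMM scaling (0.35).

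The founding member of the family, tcp1 (alpha), stood at 4.06 and 6.28 CPM in M+D+, at 4.16 and 6.34 CPM in M-D+, at 5.98 and 6.41 CPM in M+D- and at 5.45 and 7.16 CPM in M-D-. All groups overlapped, and the row rests on only 7 to 33 tags per library. For tcp1 the log2 change was -0.17 ± 0.30 (SE; limma adjusted p = 0.688) and turned positive after TMM scaling (0.28).

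The subunit cct4 (delta), mutated in a rat strain with sensory nerve loss, varied widely between the libraries of 3 groups and little in M-D-. It stood at 203 and 96.0 CPM in M+D+, at 44.0 and 170.1 CPM in M-D+, at 184 and 119 CPM in M+D- and at 51.1 and 48.1 CPM in M-D-. On the deposited scale these values do not sort by group. There M-D+ library 1 was as low as M-D-, and M-D+ library 2 was near the level of M+D-. TMM scaling would put all libraries from transgenic fish above all from wild-type fish, M+D+ library 2 only narrowly, so the order depends on the scaling. The 2 M-D+ libraries differed by 1.93 on the log2 scale, a larger gap than 94.1% of all rows showed in that group, where the median gap was 0.58. Within M+D+ the gap of cct4 exceeded that of 83.6% of all rows, and the share was 81.0% within M+D- but 12.1% within M-D-. Their counts were 74 and 751 tags, so the gap exceeds counting error. The higher of these, library 2, is the one with the highest leukocyte, endothelial and biliary marker sums. Library 1 of M+D-, where cct4 was also high, had the next highest leukocyte and biliary sums on the deposited scale (325.8 and 3086 CPM). Library 1 of M+D+, where cct4 was highest, had 277.8 and 1816 CPM. The part of these cells in the cct4 level was not tested. The log2 change of cct4 in M+D+ over the average of the control groups was 0.69 ± 0.51 (SE; limma adjusted p = 0.336). It was 1.23 after TMM scaling (limma adjusted p = 0.173), 1.26 with edgeR (adjusted p = 0.151) and 1.31 with DESeq2 (adjusted p = 0.0778).

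**Figure D2:**
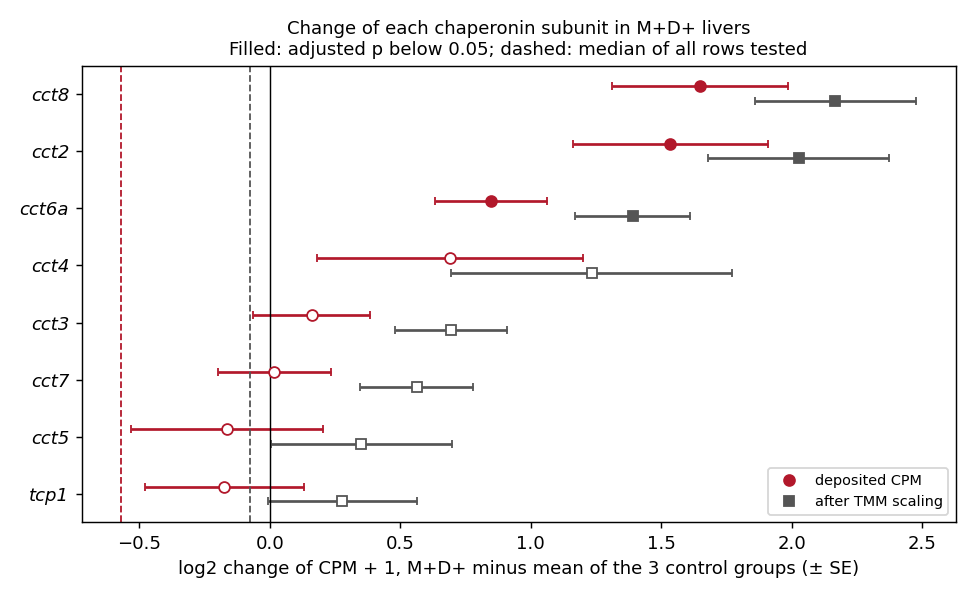
Log2 change of CPM + 1 in M+D+ minus the mean of the 3 control groups (horizontal axis) for each subunit, with its standard error, on the deposited scale and after TMM scaling. Filled symbols passed an adjusted p of 0.05 and dashed lines mark the median of all 4577 rows, at -0.57 and -0.08. The same 3 subunits are filled on both scales.

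M+D+ was then compared with each control group alone. Against wild-type livers on the same drug (M-D+), the same 3 subunits were called higher, where 2.49% of all rows were. Of these, cct2 passed the filter on low values through its M+D+ libraries, and with no filter it was not called (limma adjusted p = 0.0682). The log2 change was 1.82 ± 0.41 for cct8, 1.52 ± 0.46 for cct2 and 1.09 ± 0.26 for cct6a (SE; limma adjusted p = 0.0118, 0.03 and 0.0145). After TMM scaling the same 3 were called, while the split over all rows moved to 381 higher (8.32%) and 341 lower, beside 114 and 1909 on the deposited scale. DESeq2 called these and cct7, at a log2 change of 0.97 (adjusted p = 0.0398), with 8.74% of all rows higher, while cct7 stood at -0.12 on the deposited scale (limma) and at 0.89 after TMM scaling (adjusted p = 0.0581). The value of cct4 was 0.68 ± 0.62 (SE; limma adjusted p = 0.384). It stood at -0.28 without M-D+ library 1 and at 1.65 without M-D+ library 2 (limma adjusted p = 0.0395). The call of cct2 ended without M-D+ library 1 (limma adjusted p = 0.0929), M+D+ library 1 (0.0664) or M+D+ library 2 (0.126). Without M+D+ library 2 those of cct6a (0.052) and cct8 (0.0549) ended too, and limma called only cct5, as lower (log2 change -1.32, adjusted p = 0.0448), a change that was -0.67 with all libraries and positive after TMM scaling (0.28).

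Against untreated wild-type livers (M-D-) limma called none of the 8 subunits and 5.22% of all rows. It gave an unadjusted p below 0.05 to 4 subunits and to 1228 of all 4577 rows. The log2 change was 1.95 ± 0.46 for cct2, 1.69 ± 0.41 for cct8 and 1.02 ± 0.26 for cct6a (SE; limma adjusted p = 0.0501, 0.0559 and 0.062), and 1.48 ± 0.62 for cct4 (adjusted p = 0.177). These 3 adjusted p-values lay just above the threshold, and edgeR on recovered tags called cct2, cct8 and cct6a here, with 4.15% of all rows, as did limma after TMM scaling, with 5.33%. DESeq2 called 4 subunits, these and cct4, with 7.82% of all rows. The log2 changes of cct2, cct8 and cct6a stayed the same without M-D+ library 1 or M-D+ library 2. The M-D+ group is not part of this comparison. Over all rows 62 were higher and 177 lower, and after TMM scaling 139 and 105.

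Against untreated transgenic livers (M+D-) limma called none of the 8 and 2.73% of all rows. It gave an unadjusted p below 0.05 to 2 subunits and to 1005 of all 4577 rows, so the 2 are near the share of all rows. The log2 change was 1.44 ± 0.41 for cct8, 1.14 ± 0.46 for cct2 and 0.43 ± 0.26 for cct6a (SE; limma adjusted p = 0.094, 0.195 and 0.383). EdgeR also called none, and DESeq2 called 1, cct8 (adjusted p = 0.0125), with 4.54% of all rows. The log2 change of cct8 stayed at 1.44 without M-D+ library 1 or M-D+ library 2, as M-D+ is not part of this comparison. Over all rows 18 were higher and 107 lower, and after TMM scaling 30 and 52. These 3 comparisons share the M+D+ libraries, so their values are not independent of one another.

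The control groups were then compared among themselves. In M+D- against M-D- limma called none of the 8 subunits and 0.0% of all rows, with 1 subunit and 419 of all rows at an unadjusted p below 0.05. EdgeR called no row and DESeq2 36. On the log2 scale the values with the smallest p were 1.56 ± 0.62 for cct4 and 0.59 ± 0.26 for cct6a (SE; limma adjusted p = 0.528 for each), while cct2 stood at 0.82 ± 0.46 and cct5 at -0.65 ± 0.45 (adjusted p = 0.574 and 0.653). In M-D+ against M-D- none of the 8 was called by limma, edgeR or DESeq2, while limma called 9.79% of all rows. In limma on the deposited scale none of the 8 and 1751 of all rows had an unadjusted p below 0.05. After TMM scaling 2 subunits and 805 rows had one, with edgeR 1 and 822, and with DESeq2 1 and 686. Of the 448 rows called by limma 422 were higher in M-D+, and after TMM scaling limma called 1 row, a lower one. The log2 change of the subunits on the deposited scale ran from -0.24 ± 0.37 for tcp1 to 0.79 ± 0.62 for cct4 (SE; limma adjusted p = 0.651 and 0.366), beside a median of 0.72 for all rows, and was -0.13 ± 0.41 for cct8 (adjusted p = 0.833). Of the 8 subunits cct4 alone lay above that median.

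The interaction asked whether doxycycline changed a transcript differently in transgenic and wild-type fish. Limma called none of the 8 subunits and 8.24% of all rows, of which 365 of 377 were negative, while after TMM scaling it called 4 rows, all positive. The value for cct8 was 1.57 ± 0.58 on the log2 scale (SE; limma adjusted p = 0.0961). It was the only subunit with an unadjusted p below 0.05 on the deposited scale, where 1728 of all 4577 rows had one. After TMM scaling 5 subunits and 727 of all rows had one. On that scale 8 of 8 subunit values were positive, beside 3 on the deposited scale, and none was called (cct8 2.53, limma adjusted p = 0.0979). EdgeR also called none, with 5 subunits and 707 of all rows at an unadjusted p below 0.05. DESeq2 called 2 subunits, cct8 and cct6a, with 3.58% of all rows. Without M-D+ library 1 cct8 passed in limma (2.11, adjusted p = 0.0421).

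Subunit transcripts were present in unequal amounts. SAGE counts 1 tag per transcript, so levels were compared without dividing by length, though how well a tag is made and matched can differ between genes. Averaged over the 8 libraries, cct7 stood at 313 CPM, cct6a at 115 CPM, cct4 at 114 CPM, cct3 at 32.7 CPM, cct5 at 17.9 CPM, cct8 at 16.7 CPM, cct2 at 6.76 CPM and tcp1 at 5.73 CPM. The highest was 54.7 times the lowest. By mean level cct7 exceeded 94.1% of all rows tested and tcp1 19.4%. The order of 4 neighbouring pairs changed between libraries. For cct2 and tcp1 it went with the group only in part. The level of cct2 exceeded that of tcp1 in both M+D+ libraries and in M+D- library 1, and lay below it in the other controls. For cct8 and cct5 it did so in the same way, with cct8 higher in both M+D+ libraries and in M+D- library 1 and lower in the other controls. For cct6a and cct4 it varied within M+D+, M-D+ and M+D-, and cct3 exceeded cct4 in M-D+ library 1 alone, at 44.6 and 44.0 CPM.

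The sum over the 8 subunits was 745.6 and 738.1 CPM in M+D+, 594.4 and 635.4 CPM in M-D+, 642.3 and 635.2 CPM in M+D-, and 492.5 and 495.5 CPM in M-D-. On the deposited scale both M+D+ sums were the highest and both M-D- sums the lowest. TMM scaling divides by 1.567 and 1.464 in M-D+ and by 0.868 and 0.98 in M-D-. That would put the M-D+ sums below the M-D- sums, so the order of these 2 groups depends on the scaling. The largest share of it came from cct7, at 40.1% and 45.1% in M+D+ and 43.3% to 62.6% in the controls. With cct4 and cct7 set aside the other 6 summed to 244.1 and 309.4 CPM in M+D+ and to 145.7 to 197.4 CPM in the controls.

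A ratio within a library does not depend on how libraries are scaled, so each subunit was also set against cct7. There were 9.37 and 12.7 cct8 tags per 100 cct7 tags in M+D+, while the 6 control libraries had 1.87 to 4.44. For cct2 the ratio was 3.82 and 4.93 in M+D+, while the controls had 0.63 to 2.87. For cct6a it was 53.0 and 54.9 in M+D+, against 42.5 and 42.0 for M+D- fish and 22.2 to 29.96 for the 4 wild-type libraries. These 3 transcripts thus had a higher proportion to cct7 in both M+D+ libraries than in any control library. The cct3 ratio was 11.0 and 11.2 for M+D+ livers, 11.98 and 11.5 for M-D+ livers, 9.38 and 8.86 for M+D- livers, and 9.25 and 9.70 for M-D- livers. Those of cct4, cct5 and tcp1 overlapped between M+D+ and the controls. The ratios show unequal change among the subunits, not that cct7 stayed the same.

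**Figure D3:**
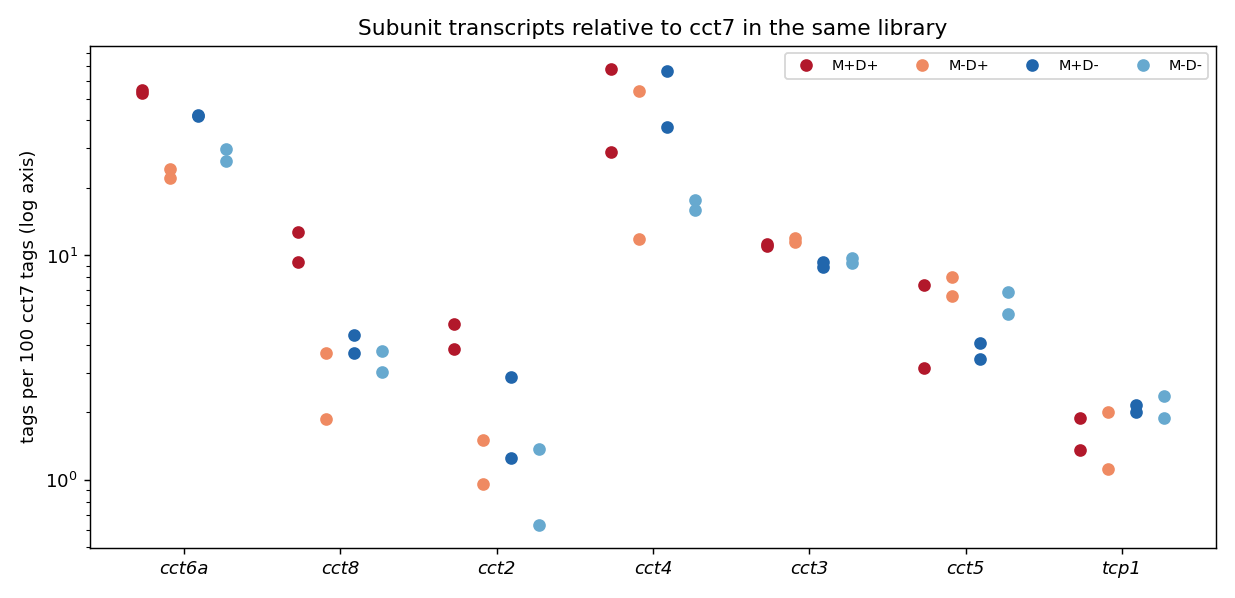
Tags of each subunit per 100 cct7 tags in the same library (log axis), 1 point per library, coloured by group. For cct6a, cct8 and cct2 both M+D+ points lie above all control points, while those of cct4, cct5, cct3 and tcp1 reach into the range of the controls.

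Some of the subunits varied together over the 8 libraries. Pearson's r of log2(CPM + 1) was 0.87 between cct6a and cct8, 0.80 between cct2 and cct6a and 0.77 between cct2 and cct8. Among the others, r was 0.88 between cct3 and cct7, 0.74 between cct5 and cct7 and 0.68 between cct3 and cct5. Between cct7 and the first trio r ran from -0.06 to 0.18. For cct4, r was 0.58 with cct2, 0.49 with cct6a, 0.14 with cct8, -0.18 with cct3, -0.41 with cct7 and -0.67 with cct5. For tcp1, r was 0.0 or below with every other subunit. The first trio is the 3 subunits called higher in M+D+, so the r values among them partly restate those calls. All these values describe 8 libraries in 4 groups that share scaling by library total, so the points are not independent. They were taken on the deposited scale, and r was not computed after TMM scaling. TMM scaling would put cct7, cct6a and cct8 highest in both M+D+ libraries and lowest in both M-D+ libraries. The low r of cct7 with cct6a and cct8 thus depends on the scaling. As background, each subunit has a fixed place in the assembled ring of yeast and mammals. A link between ring position and r was not tested.

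The rows most like the mean pattern of the 8 subunits were then taken from 1541 named rows that averaged at least 20 CPM. By Pearson's r over the 8 libraries they were aimp2 (0.964), sh3bgrl2 (0.956), arrdc2 (0.94), slc40a1 (0.936), atp5mc3b (0.931) and sesn1 (0.927). For comparison, r with this mean was 0.946 for cct2, 0.854 for cct6a, 0.832 for cct8 and 0.522 or less for the other subunits. As an example, aimp2, a scaffold of the multi-tRNA synthetase complex, stood at 31.1 and 51.7 CPM in M+D+, at 17.2 and 19.0 CPM in M-D+, at 23.1 and 23.7 CPM in M+D- and at 7.72 and 9.97 CPM in M-D-. Its M+D+ libraries were the highest, its M-D- libraries the lowest, and the other 2 groups lay between. The gene slc40a1 encodes the iron exporter ferroportin, atp5mc3b a subunit of ATP synthase and sesn1 a stress-induced sestrin. The mean pattern used for the choice was itself highest in the M+D+ libraries, so levels by group restate the choice and were not tested.

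The cofactors and clients of the chaperonin were read as lists beside it, against the mean of the controls and by the same fit. Of 12 listed prefoldin and phosducin-like cofactors 6 were tested. In this comparison 20.7% of all rows were called lower and 2.32% higher, and after TMM scaling 5.05% lower and 5.86% higher. In the list none rose and 1 fell, pfdn6, a prefoldin subunit, at 20 and 25.5 CPM in M+D+, 71.3 and 66.1 CPM in M-D+, 39.8 and 38.2 CPM in M+D- and 36.4 and 38.8 CPM in M-D-. Its log2 change was -1.01 ± 0.22 (SE; limma adjusted p = 0.0187), and after TMM scaling it was -0.48 and not called. The median log2 change of the list was -0.12, beside -0.57 for all rows, and 0.40 after TMM scaling.

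Of 21 listed actin and tubulin genes 8 were tested, none rose and 3 fell, all of them tubulins, where 20.7% of all rows were lower. The alpha-tubulin tuba8l4 stood at 64.5 and 94.6 CPM in M+D+, 568 and 475 CPM in M-D+, 237 and 185 CPM in M+D- and 179 and 256 CPM in M-D- (log2 change -1.86 ± 0.27 (SE), limma adjusted p = 0.00819). The beta-tubulins tubb2b and tubb4b had log2 changes of -1.92 ± 0.34 and -1.21 ± 0.27 (limma adjusted p = 0.011 and 0.0197). For tuba8l4 and tubb4b both M+D+ libraries lay below all 6 controls, and for tubb2b they overlapped with M+D-. The median log2 change of the list was -0.79 and after TMM scaling -0.25, with 1 higher and 2 lower.

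Of 33 genes listed as WD-repeat proteins, a fold class that includes many chaperonin clients, 15 were tested. The list also holds copb1 (log2 change -0.06), a coatomer subunit without WD repeats. In it 3 rose and 3 fell, where 2.32% of all rows were higher and 20.7% lower, so the number that fell is near the share of all rows. The ribosome-bound scaffold rack1 stood at 768 and 659 CPM in M+D+, 404 and 299 CPM in M-D+, 487 and 434 CPM in M+D- and 337 and 349.5 CPM in M-D- (log2 change 0.90 ± 0.23 (SE), limma adjusted p = 0.0288). The translation initiation subunit eif3i and the migration-associated gene aamp also rose, with log2 changes of 0.82 ± 0.23 and 1.39 ± 0.30 (limma adjusted p = 0.0366 and 0.0185). The coatomer subunit copb2, the histone-binding rbbp4 and the phosphatase subunit ppp2r2d fell, with log2 changes of -1.71 ± 0.26, -2.12 ± 0.37 and -1.05 ± 0.28 (limma adjusted p = 0.00847, 0.0107 and 0.033). The median log2 change of the list was -0.36, and after TMM scaling it was 0.16, with 3 higher and 2 lower. Of 5 tubulin folding cofactors 3 were in the files and none was tested.

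The other chaperone systems of the cell were described in the same way. Of 40 listed genes of the cytosolic Hsp70 and Hsp90 machinery 21 were tested, 1 rose and 7 fell, beside 2.32% of all rows higher and 20.7% lower, and the median log2 change was -0.77. The one that rose was hsp90ab1, the constitutive Hsp90, at 431 and 682 CPM in M+D+, 183 and 165 CPM in M-D+, 229 and 222 CPM in M+D- and 312 and 194 CPM in M-D- (log2 change 1.35 ± 0.28 (SE), limma adjusted p = 0.017). The 3 with the smallest p among those that fell were the Hsp90 co-chaperone fkbp5 and the J-domain proteins dnaja2a and dnajc7, with log2 changes of -1.64 ± 0.30, -1.36 ± 0.25 and -1.09 ± 0.21 (limma adjusted p = 0.012, 0.012 and 0.0138). After TMM scaling 2 of this list were called higher and 1 lower, with a median of -0.27.

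Of 8 listed mitochondrial chaperones 6 were tested, none rose and 3 fell, where 20.7% of all rows were lower. The mitochondrial chaperonin hspd1 stood at 9.53 and 25.5 CPM in M+D+, 194 and 136 CPM in M-D+, 16.9 and 10.2 CPM in M+D- and 51.6 and 44.0 CPM in M-D- (log2 change -1.53 ± 0.39 (SE), limma adjusted p = 0.0275). Its M+D+ values overlapped with M+D- and lay below the wild-type libraries. The nucleotide exchange factor grpel1 and the Hsp90 paralog trap1 had log2 changes of -1.33 ± 0.24 and -1.79 ± 0.41 (limma adjusted p = 0.012 and 0.0206). Both M-D+ libraries, at 16.05 and 7.48 CPM, took trap1 past the filter on low values. It stood at 1.41 and 0.35 CPM in M+D+ and at 2.87 to 5.0 CPM in the untreated groups, so its values are near the floor. After TMM scaling none of these 6 was called. The median log2 change of the list was -0.93 on the deposited scale.

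**Figure D4:**
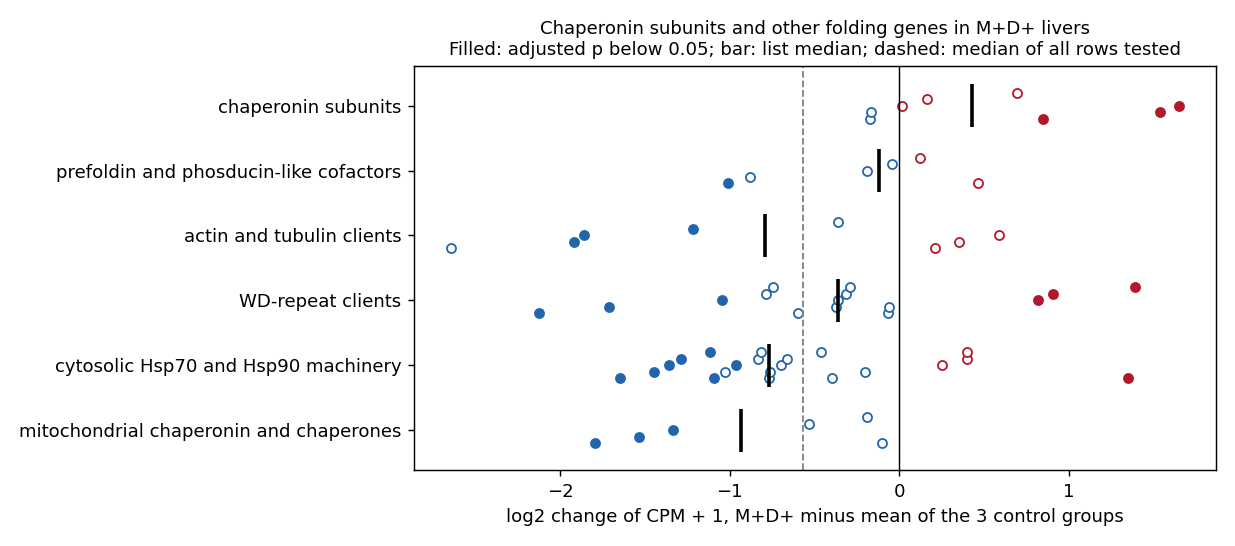
Log2 change of CPM + 1 in M+D+ minus the mean of the 3 control groups (horizontal axis) for every tested gene of 6 lists. Filled points passed an adjusted p of 0.05, black bars are list medians and the dashed line is the median of all rows, -0.57. The chaperonin subunits have the highest list median (0.43), and the mitochondrial chaperones the lowest (-0.93).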

How the data were processed

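RNA-SAGE tags of 8 liver libraries, 2 in each of 4 groups, were deposited by the authors as CPM (tag counts scaled to a common library total) per RefSeq row, per the file headers; the sources used here do not give the aligner, genome build or tag assignment. Recovering whole tags from the smallest CPM steps gave 100% whole values within 0.1 tag in every library, and totals of 1682373 to 6399932 tags, at which 3 tags equal 0.469 to 1.783 CPM. Symbols were matched through RefSeq tables for 10410 of 15600 rows, and 122 rows had no RefSeq accession. Rows with at least 5 CPM in at least 2 libraries were tested (4577) with limma 3.58.1 (R 4.3.3) on log2(CPM + 1), with 4 group means, an intensity trend, two-sided p-values and Benjamini-Hochberg adjustment over all tested rows, with a threshold of 0.05. The small pseudocount understates changes of low genes such as tcp1 and cct2. Alternatives were TMM scaling, edgeR 4.0.16 and DESeq2 1.42.0 on recovered tags, pseudocounts of 0.5 and 5, no filter, a replicate block, leaving out each library, and leaving M-D+ out of the control average. EdgeR called 449 rows against the mean of the controls, 300 higher and 149 lower. Each pair of libraries differed by more than counting noise (chi-square of at least 47.3 per degree of freedom). The fits were tested on simulated data. All subunits were named. In each list the genes called against the mean of the controls were named, up to 3 in each direction by smallest p, and the 6 rows most like the subunits by Pearson's r. The subunits and lists were chosen with earlier results of these data known. Since SAGE rows count tags by transcript, reads shared with near-identical paralogs, such as the tubulins, are uncertain.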

Additional observations from a re-analysis of the deposited data

How the results depend on the processing

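The rise of cct8 against the mean of the controls passed the threshold under each setting with all 8 libraries, that of cct2 under each but no filter (adjusted p = 0.0587) and a control average without M-D+, and that of cct6a under each but these 2 and the replicate block (0.0737, 0.0839 and 0.0562). Hence 1 subunit, cct8, was called with no filter and with M-D+ left out. Against M-D+, cct2 was not called with no filter (0.0682). The cause of these changes was not tested, though no filter adjusts over more rows. Subunits called were 1 by DESeq2 against M+D-, 3 with TMM scaling, 3 by edgeR and 4 by DESeq2 against M-D-, 4 by DESeq2 against M-D+ (with cct7 added), and 2 by DESeq2 in the interaction. The log2 change of cct5 was 0.35 with TMM scaling, 0.45 with edgeR, 0.51 with DESeq2 and 0.09 with M-D+ left out, and that of tcp1 was 0.28, 0.30 and 0.36 by the first 3 of these. None of these passed.

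Calls over all rows also moved with the setting. Against the mean of the controls they numbered 1052, with 499 under TMM scaling, 449 by edgeR, 534 by DESeq2, 556 with no filter and 377 with M-D+ left out. Against M-D+ the 2023 calls became 722, 601 and 705 by the first 3 of these. Against M+D- there were 125, with 82, 39 and 208 by the same 3, 66 with no filter and 48 with the replicate block. Against M-D- there were 239, with 244, 190 and 358 by TMM scaling, edgeR and DESeq2, 87 with no filter and 85 with the block. In M+D- against M-D- DESeq2 called 36 and limma 0. In M-D+ against M-D- there were 448, with 1 under TMM scaling, 0 by edgeR, 148 by DESeq2, 225 and 692 with pseudocounts of 0.5 and 5, 3 with no filter and 0 with the block. For the interaction there were 377, with 4, 0 and 164 by TMM scaling, edgeR and DESeq2, 0 with no filter and 6 with the block.

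Leaving out 1 library gave 67 to 1323 calls over all rows against the mean of the controls, 1057 to 1792 against M-D+, 0 to 261 against M+D-, 0 to 433 against M-D-, 0 to 1 in M+D- against M-D-, 0 to 617 in M-D+ against M-D- and 0 to 511 in the interaction. Subunits called ran over 0 to 3, 1 to 4, 0 to 1, 0 to 3, 0 to 0, 0 to 0 and 0 to 1 in the same order. A group left with 1 library is assumed to vary like the others. The log2 change against the mean of the controls ran over 1.36 to 1.94 for cct8, 1.29 to 1.78 for cct2, 0.75 to 0.95 for cct6a, -0.81 to 0.48 for cct5, -0.059 to 0.096 for cct7 and -0.436 to 0.088 for tcp1, and that of cct4 against M-D+ over -0.28 to 1.65.

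The replicate numbers share no stated origin and were not read as pairs. Deviations of same-numbered libraries correlated at -0.333 to 0.045. With 2 libraries in a group the deviations mirror each other, so differently numbered libraries gave the same values with opposite sign. Between M-D+ library 1 and M+D+ library 2 the value was 0.333. With the replicate block 2 subunits, cct8 and cct2, were called against the mean of the controls and 727 rows in all. Depth limits tcp1 and cct2 most, with as few as 7 and 6 tags in M-D+ library 1.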

Other observations

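Other marker genes of the liver differed beside the subunits, against the mean of the controls on the deposited scale. Of 12 hepatocyte markers tested 5 fell and none rose, where 20.7% of all rows were lower, and 1 fell after TMM scaling, where 5.05% of all rows were. The secreted glycoprotein gene ahsg2 stood at 258 and 486 CPM in M+D+, 1896 and 3187 CPM in M-D+, 3787 and 2370 CPM in M+D- and 1720 and 2437 CPM in M-D-. Its log2 change was -2.80 ± 0.36 (SE; limma adjusted p = 0.00618) and -2.25 after TMM scaling (adjusted p = 0.0104). Both M+D+ libraries lay below every control library. The level of fabp10a, whose promoter drives the transactivator, had a log2 change of 0.05 (limma adjusted p = 0.941). The erythroid haem synthesis gene alas2 rose, at 24.5 and 26.5 CPM in M+D+, 14.9 and 13.6 CPM in M-D+, 12.6 and 8.40 CPM in M+D- and 7.5 and 9.54 CPM in M-D- (log2 change 1.17 ± 0.25 (SE), limma adjusted p = 0.0182), while the globin gene hbba1 had a log2 change of -1.16 ± 0.30 (adjusted p = 0.028) that did not pass after TMM scaling (-0.62, adjusted p = 0.212).

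Of 11 exocrine pancreas markers tested 4 fell and none rose, where 20.7% of all rows were lower. The elastase gene ela2l stood at 16.7 and 20.9 CPM in M+D+, 114.7 and 58.4 CPM in M-D+, 61.3 and 111.4 CPM in M+D- and 130.2 and 78.5 CPM in M-D- (log2 change -2.18 ± 0.37 (SE), limma adjusted p = 0.00997). All controls lay above both M+D+ libraries, and after TMM scaling 1 of the 11 was called lower.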
